A study of Mus musculus with 12 samples.

Results

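Lung tumors with floxed Glut1 and an inducible dominant negative PPARα were compared by bulk RNA-seq between 3 tumors from mice on a doxycycline diet (labelled KPG1-PPARαΔ13) and 3 tumors from mice on a regular diet (labelled KPG1). These 6 tumors were taken by their titles from the 12 tumors of the series, and the comparison is described across the 16527 genes that passed a filter on low counts. All mice were C57BL/6 and carried p53 Fl/Fl, Glut1 Fl/Fl and CCSP-rtTA alleles. Every tumor was started by intratracheal delivery of 6000 viral units of Lenti.TRE-PPARaD13_PGK-Cre, so that the control tumors carried the silent transgene as well. Cre deletes p53 and Glut1 in the infected cells. The reverse tetracycline transactivator is driven by the promoter of the club cell secretory protein, and doxycycline (625 mg/kg diet for 15 days, ending 26 weeks after initiation) then turns on the transgene. Diet and transgene came together and cannot be told apart. The macrodissected tumors were depleted of CD45-positive cells before RNA was extracted. The 3 KPG1 tumors were from 2 male mice, with replicates 1 and 2 from the same animal. Of the KPG1-PPARαΔ13 tumors, replicate 2 was from a male and replicates 1 and 3 from 1 female. Sex is therefore partly confounded with the transgene, and p-values measure the spread among tumors of which some share an animal.

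PPARα is a nuclear receptor that is activated by fatty acids and their derivatives. It binds DNA as a heterodimer with RXR at PPAR response elements and drives genes of mitochondrial and peroxisomal fatty acid oxidation, ketogenesis and fatty acid transport, best known in liver. PPARαΔ13 is a C-terminally truncated form that still occupies its sites without activating transcription. Alveolar type 2 cells, which are a cell of origin of lung adenocarcinoma, make and recycle surfactant and have an active lipid metabolism.

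The libraries held 25263794 to 32654223 counts each, and sex-linked transcripts matched the labelled sex of all 6 tumors. *Xist*, which silences one X chromosome in females, was at 5213 and 2733 CPM (counts scaled to a common library size) in the female tumors and at 0.48 to 3.28 CPM in the male tumors. Epithelial identity was clear in all samples, with *Epcam* at 298 to 486 CPM and *Sftpc*, the surfactant protein C gene, at 9798 to 29952 CPM. Leukocyte markers overlapped between the groups. The 30 markers counted summed to 604.4 to 2268 CPM in KPG1 tumors and to 248.7 to 2118 CPM in KPG1-PPARαΔ13 tumors. Of these, 1 is also in the alveolar type 2 list, so the sum is not leukocyte RNA alone. The mean log2 CPM of the 19 tested was 1.51, 1.78 and 1.57 in KPG1 tumors and 1.18, 2.29 and 1.39 in KPG1-PPARαΔ13 tumors. *Ptprc*, which encodes CD45, was at 4.8, 5.09 and 5.49 CPM in KPG1 tumors and at 5.76, 8.07 and 3.45 CPM in KPG1-PPARαΔ13 tumors. As these are bulk samples, fewer cells of a type and less RNA per cell cannot be told apart.

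Transcripts of the receptor itself did not separate the groups. *Ppara* (ENSMUSG00000022383, mm10 chr15:85734983-85802819) was at 7.24, 10.46 and 15.27 CPM in KPG1 replicates 1 to 3 and at 8.9, 19.24 and 17.73 CPM in KPG1-PPARαΔ13 replicates 1 to 3. The groups overlapped, and the log2 fold change was 0.48 (SE 0.958, edgeR adjusted p = 0.88). Reads of the truncated transgene may be counted in this gene, and the deposited counts cannot separate them from the endogenous transcript. The KP mice of the series were not Glut1 Fl/Fl. The paper states that its control mice were wild-type for *Slc2a1* or heterozygous for the floxed allele. In the 3 KP tumors *Ppara* was at 15.7, 10.5 and 9.54 CPM, and in the 3 KP-PPARαΔ13 tumors at 2.71, 64.6 and 246 CPM. Levels as high as those of the latter replicates 2 and 3 were found in none of the KPG1-PPARαΔ13 tumors, so induction of the transgene was not visible in the *Ppara* counts of any of these 3 tumors, which are called here by their labels. The other nuclear receptors of this family were close to level as well. *Pparg*, the PPAR of fat storage and of alveolar macrophages, was at 41.2, 52.2 and 59.8 CPM in KPG1 tumors and at 92.3, 53.9 and 64.3 CPM in KPG1-PPARαΔ13 tumors. *Ppard*, the broadly expressed PPAR, had a log2 fold change of −0.39 and *Rxra*, the shared partner, one of −0.01 (0.0045 with upper-quartile scaling), both with overlapping groups. Among the 17 PPAR, RXR and related receptor and cofactor genes tested, 9 were higher and 8 lower, with a median log2 fold change of 0.03.

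The gene deleted in these tumors was still counted. *Slc2a1* (ENSMUSG00000028645, mm10 chr4:119108711-119137983), which encodes Glut1, was at 30.2, 64.0 and 39.9 CPM in KPG1 tumors and at 23.7, 53.2 and 54.5 CPM in KPG1-PPARαΔ13 tumors. A count over the whole gene takes in the exons outside the floxed part and stromal cells that keep the gene, so it is no measure of the deletion. *Slc2a3*, which encodes the high-affinity glucose transporter Glut3, varied widely, at 268, 33.6 and 330 CPM against 727, 235 and 106 CPM. Its log2 fold change was 0.76 (SE 1, adjusted p = 0.808), and the groups overlapped. Over the 11 glucose transporter genes tested, 6 were higher and 5 lower.

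Across the transcriptome the spread between tumors was large compared with the difference between groups. At an adjusted p under 0.05, edgeR called 1 gene of 16527 (0.00605%), the α-globin gene *Hba-a2*. Without adjustment, 1033 genes (6.25% of those tested) were higher and 744 (4.5%) lower in KPG1-PPARαΔ13 tumors at p under 0.05. In 1848 genes (11.2%) all 3 KPG1-PPARαΔ13 tumors were above all 3 KPG1 tumors, and in 1556 genes (9.41%) all 3 were below. DESeq2 called 126 genes higher (0.798% of the 15790 with an adjusted p) and 71 lower (0.45%), while limma voom called 0. The median log2 fold change of all genes tested was 0.02, with 8624 genes higher and 7903 lower. All counts of members below are to be read against these shares, and apart from *Hba-a2* no gene named here passed the edgeR threshold.

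*Hba-a2* (ENSMUSG00000069917, mm10 chr11:32296489-32297298, plus strand) rose from 0.24, 0.103 and 0.529 CPM in KPG1 tumors to 122, 29.1 and 37.1 CPM in KPG1-PPARαΔ13 tumors. The group means of 3 tumors each were 0.291 ± 0.217 and 62.7 ± 51.5 CPM (SD), which corresponds to 7.72 on the log2 scale (SE 0.784, edgeR adjusted p = 0.0105). The adjacent and near-identical *Hba-a1* (chr11:32283511-32284465), which encodes the same globin chain, was present in every tumor, at 65.2, 68.7 and 126 CPM and at 196, 126 and 53 CPM. Counted together, both genes gave 65.4, 68.8 and 126.5 CPM in KPG1 tumors and 317.7, 154.9 and 90.1 CPM in KPG1-PPARαΔ13 tumors, and the groups overlapped. *Hba-a2* made up 0.15 to 0.418% of this sum in the KPG1 tumors and 18.8 to 41.2% in the KPG1-PPARαΔ13 tumors. The same share was 16.5 to 37.1% in the 3 KP tumors and 16.2 to 36.4% in the 3 KP-PPARαΔ13 tumors. The KPG1 tumors thus stood apart from the other 9. Reads of such copies can be split between them by the counting, and the 3 KPG1 tumors came from 2 mice. The part of either in the change of *Hba-a2* was not tested, and the change is uncertain. The β-globins did not share the pattern, with *Hbb-bs* at 238, 155 and 264 CPM against 720, 373 and 231 CPM and *Hbb-bt* at 552, 388 and 542 CPM against 313, 191 and 389 CPM. *Alas2*, the erythroid enzyme of heme synthesis, was at 31, 17.2 and 29.2 CPM against 69.1, 41.2 and 21.2 CPM. The call was lost when any 1 of the 3 KPG1 tumors was left out, while the log2 fold change stayed between 6.80 and 8.47 without single tumors.

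**Figure D1:**
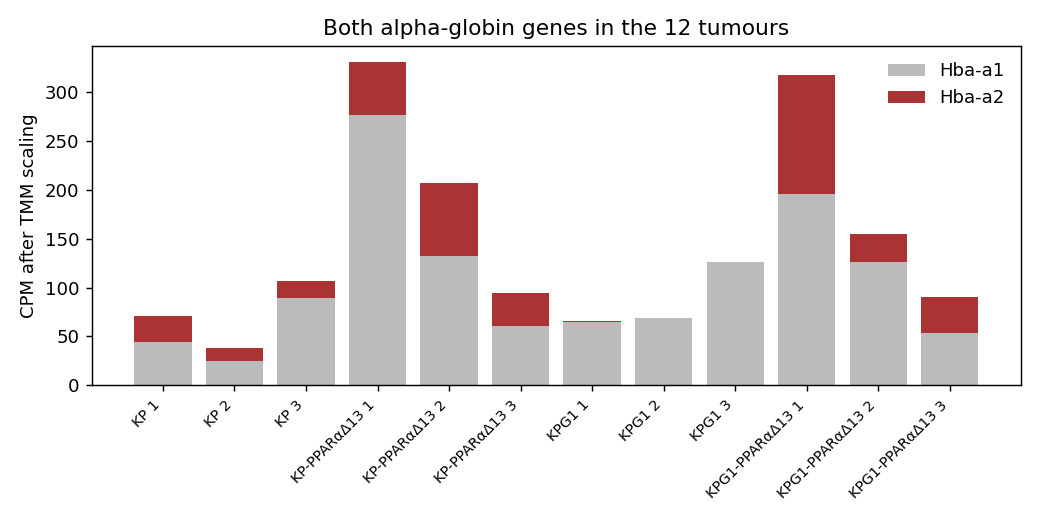
Stacked bars of *Hba-a1* (gray) and *Hba-a2* (red) in each of the 12 tumors (CPM after scaling, linear axis from 0). The red segment is 0.15 to 0.418% of the bar in the 3 KPG1 tumors and 16.2 to 41.2% of it in the other 9.

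The genes ranked next by p-value, among those that averaged 5 CPM or more and did not overlap between groups, are described by their values, since their adjusted p ran from 0.141 to 0.42. DESeq2 called all of the 24 genes so ranked, *Hba-a2* included, and the ranking had chosen them for a small p-value and for separation. *Acsbg1*, an acyl-CoA synthetase that activates long-chain fatty acids, was at 0.36, 0.998 and 0.529 CPM in KPG1 tumors and at 6.55, 19.8 and 8.1 CPM in KPG1-PPARαΔ13 tumors (log2 fold change 4.18, SE 0.591, adjusted p = 0.141). Its log2 fold change between KP-PPARαΔ13 and KP tumors was 4.14. *Cym*, the gene of the gastric protease chymosin, was at 0.08, 0.172 and 0.264 CPM against 1.06, 82.2 and 14.5 CPM, and most of this difference came from replicate 2. *Ncs1*, a neuronal calcium sensor, was steady at 1.08, 1.17 and 1.06 CPM in KPG1 tumors and lay at 21, 7.72 and 16 CPM in KPG1-PPARαΔ13 tumors. *Fblim1*, which links filamin to cell–matrix adhesions, was at 18.9, 22.3 and 26.2 CPM against 132, 51.7 and 71.5 CPM, and *Sh3pxd2b*, a podosome scaffold, at 34.4, 40.8 and 55.9 CPM against 143, 78 and 91.1 CPM. In both genes replicate 1 of the KPG1-PPARαΔ13 tumors was highest. *Adpgk*, an ADP-dependent glucokinase, was among the tightest of the differences, at 14.4, 12.6 and 12.6 CPM against 32.7, 29.6 and 26.6 CPM (log2 fold change 1.17, SE 0.213). It was at 21.5, 30.0 and 22.1 CPM in KP and at 21.0, 21.9 and 16.2 CPM in KP-PPARαΔ13 tumors, so the KPG1 tumors were lowest. *Adpgk* and *Acsbg1* are on chromosome 9, whose genes had a median log2 fold change of 0.35. *Tmem86a*, a lysoplasmalogen hydrolase, had a log2 fold change of 2.04. The remaining genes of this direction were *Zfp185* (1.88), *Plxna3* (1.35), *Rhobtb1* (1.13) and *Nhsl1* (0.88), of which the first pair is on the X chromosome.

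In the other direction, *Cxcl15*, the chemokine lungkine that is made by lung epithelial cells, was at 4213.8, 3612.9 and 4582.8 CPM in KPG1 tumors and at 832.3, 1327.9 and 1503.3 CPM in KPG1-PPARαΔ13 tumors (log2 fold change −1.76, SE 0.376). *Aldh2*, the mitochondrial aldehyde dehydrogenase that clears acetaldehyde and lipid peroxidation products, was at 647.9, 887.4 and 1085.5 CPM against 258.2, 359.0 and 419.6 CPM (−1.34, SE 0.258, adjusted p = 0.406). *Anpep*, aminopeptidase N, was at 31.6, 23.4 and 31.9 CPM against 11.7, 12.7 and 15.5 CPM, a log2 fold change of −1.12, and differed by −2.50 between KP-PPARαΔ13 and KP tumors. None of these genes overlapped between groups. *Psenen*, a subunit of γ-secretase, was at 40.6, 29.6 and 21.1 CPM against 10.7, 7.62 and 10.6 CPM (log2 fold change −1.66, SE 0.279, adjusted p = 0.346). *Tgfbr3*, the TGF-β co-receptor betaglycan, was at 59.6, 46.3 and 33.9 CPM against 14, 11.7 and 16.2 CPM. *Scarb2*, a lysosomal membrane protein, was at 355, 265 and 342 CPM against 105, 141 and 159 CPM. *Afm*, which encodes the vitamin E-binding protein afamin, had a log2 fold change of −2.38, *Mctp1* one of −1.43, *Tmem213* −1.35, *Tmem243* −1.29 and *Erich2* −2.03. The antisense transcript *BC018473* was at 11.3, 0.654 and 34.4 CPM in KPG1 tumors and at 0, 0.064 and 0 CPM in KPG1-PPARαΔ13 tumors. It was at 0 CPM in the KP tumors and at 0.103, 0.0323 and 0 CPM in KP-PPARαΔ13 tumors, so the KPG1 tumors were highest. *Aldh2* was also highest in KPG1 tumors, with 421, 375 and 442 CPM in KP and 521, 362 and 522 CPM in KP-PPARαΔ13 tumors. Of the 24 genes, 13 had the same sign between KP-PPARαΔ13 and KP tumors, and 6 are on chromosome 5.

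**Figure D2:**
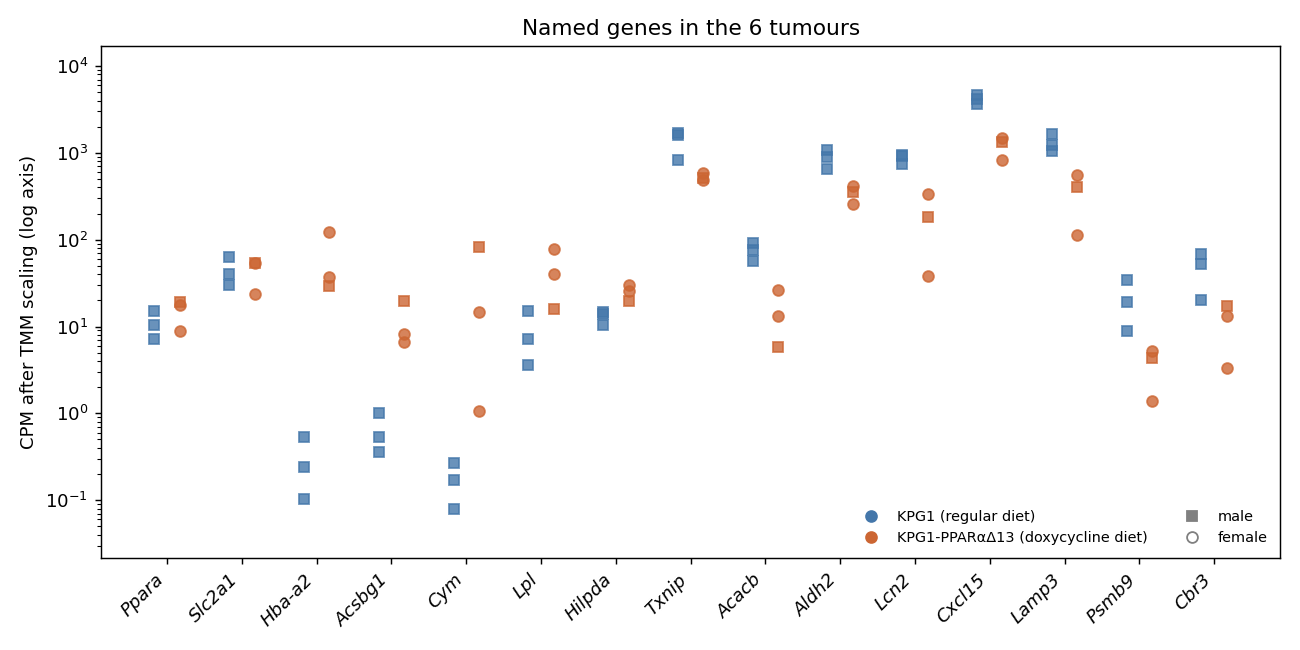
Levels of 15 named genes in each of the 6 tumors (CPM after scaling, log axis), 1 point per tumor, with KPG1 in blue, KPG1-PPARαΔ13 in orange, squares for males and circles for females. The groups overlap in *Ppara* and *Slc2a1* and are separate in the other 13 genes.

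Classical PPARα targets were measured first as a group. Of 59 genes of fatty acid oxidation and PPARα targets that were tested, 22 were higher and 37 lower, with a median log2 fold change of −0.19. At an unadjusted p under 0.05, 2 were higher and 7 lower, and none passed adjustment by edgeR, while DESeq2 called 1 in each direction. The mean log2 CPM over the list was 4.95, 4.8 and 5.02 in KPG1 tumors and 4.89, 4.84 and 5.04 in KPG1-PPARαΔ13 tumors, which overlap. This mean weighs all genes alike, whereas a sum weighs the abundant ones. Summed CPM was 8637, 8459 and 7988 in KPG1 tumors and 5568, 5679 and 6585 in KPG1-PPARαΔ13 tumors, without overlap. Enzymes and transporters of the oxidation pathway itself were among the lower members. *Cpt1a*, the carnitine palmitoyltransferase that gates mitochondrial import of fatty acids, was at 190.7, 258.7 and 153.8 CPM against 107.1, 103.6 and 157.1 CPM (log2 fold change −0.71, edgeR adjusted p = 0.453). Its groups overlapped. *Cd36*, a fatty acid translocase, was at 1736.6, 1750 and 1425.9 CPM against 819.3, 1069 and 1385 CPM, each KPG1-PPARαΔ13 tumor below each KPG1 tumor. *Hadha*, the α-subunit of the mitochondrial trifunctional protein, was at 295, 267 and 326 CPM against 235, 164 and 212 CPM (−0.54), also without overlap.

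Some PPARα targets that respond to fasting in other tissues were measured as well. *Angptl4*, an inhibitor of lipoprotein lipase, was at 51.5, 26.2 and 20 CPM in KPG1 tumors and at 27.4, 21.3 and 33.2 CPM in KPG1-PPARαΔ13 tumors. *Pdk4*, the kinase that shuts off pyruvate dehydrogenase, was at 21.8, 0.93 and 1.02 CPM against 49.9, 8.48 and 13.8 CPM. *Plin2*, the coat protein of lipid droplets, was at 142.5, 114.4 and 136.6 CPM against 180.4, 147.8 and 166.5 CPM, a log2 fold change of 0.33, and was the only 1 of these 3 whose groups did not overlap. The members of the list with the smallest p-values were *Txnip*, *Klf10* and *Slc27a1*. *Txnip*, an arrestin that restrains glucose uptake, was at 1696.6, 833.4 and 1592.5 CPM in KPG1 tumors and at 484.5, 507.0 and 583.4 CPM in KPG1-PPARαΔ13 tumors (log2 fold change −1.39, SE 0.371), and was called by DESeq2. *Klf10*, a transcription factor, was at 86.1, 69.6 and 59.6 CPM against 36.3, 42.2 and 37.8 CPM. *Slc27a1*, the fatty acid transport protein FATP1, was at 73.6, 80.9 and 95 CPM against 38.9, 59.5 and 44.3 CPM. These 3 genes did not overlap between groups, and the 3 KPG1-PPARαΔ13 tumors were close to each other in *Txnip* and *Klf10*.

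*Fabp1*, the liver fatty acid-binding protein and a textbook PPARα target, was low in 2 KPG1 tumors at 0.08 and 0.103 CPM, reached 1.85 CPM in the third, and was at 10.6, 1.28 and 21.2 CPM in KPG1-PPARαΔ13 tumors. Its log2 fold change of 4 (SE 1.32) was opposite in sign to that between KP-PPARαΔ13 and KP tumors, which was −2.11. The 250 bases before its start are shown because it was the 1 gene of the list whose window held the PPAR response element searched for (AGGNCANAGGNCA on either strand, in capitals). Its first base lies 67 bases before the start, and the sequence is from RefSeq (GRCm38.p6, chr6:71199629-71199878, plus strand).
*Fabp1*: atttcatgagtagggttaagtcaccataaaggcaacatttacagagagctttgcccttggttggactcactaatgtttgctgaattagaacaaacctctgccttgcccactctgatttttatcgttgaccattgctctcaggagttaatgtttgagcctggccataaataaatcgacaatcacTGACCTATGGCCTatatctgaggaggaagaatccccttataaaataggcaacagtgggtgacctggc

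Of all 32851 promoter windows of 300 bases, 0.381% held this element. For the 59 genes, 47 had a window, and 1 of their 58 windows held it. A missing match says only that these letters were not in the window, and the site in *Fabp1* was not measured for binding.

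Peroxisomal genes were lower more often than higher by small amounts. Of the 65 tested, 23 were higher and 42 lower with a median log2 fold change of −0.17. At an unadjusted p under 0.05, 0 were higher and 4 lower. Summed CPM of the list was 5061, 5546 and 6139 in KPG1 tumors and 4243, 4464 and 4749 in KPG1-PPARαΔ13 tumors, without overlap. *Prdx5*, a peroxiredoxin of mitochondria and peroxisomes, was at 111.5, 211.2 and 114.6 CPM in KPG1 tumors and at 60.4, 63.7 and 82 CPM in KPG1-PPARαΔ13 tumors (log2 fold change −1.08, SE 0.359). It is on chromosome 19, whose genes had a median of −0.35. *Tmem135* and *Nudt12*, both peroxisomal, had log2 fold changes of −0.51 and −0.46. In bile acid and oxysterol metabolism, which shares its chain-shortening step with the peroxisome, 18 of 33 genes were higher and 15 lower. Summed CPM of that list was 2895, 2560 and 3599 in KPG1 tumors and 1830, 2232 and 2529 in KPG1-PPARαΔ13 tumors, lower without overlap. *Aldh1a1*, a retinaldehyde dehydrogenase, was at 46.5, 108 and 42.8 CPM against 24.7, 21.4 and 32.9 CPM (log2 fold change −1.32). The groups did not overlap.

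Genes of lipid storage and synthesis differed one by one rather than as groups. In the 30 genes of lipid droplets and lipolysis, 4 were higher and 2 lower at an unadjusted p under 0.05, and DESeq2 called 2, both higher. *Lpl*, lipoprotein lipase, was at 7.16, 3.65 and 15.1 CPM in KPG1 tumors and at 78.1, 16 and 40.2 CPM in KPG1-PPARαΔ13 tumors (log2 fold change 2.37, SE 0.694). *Hilpda*, an inhibitor of triglyceride lipolysis, was at 14, 14.5 and 10.3 CPM against 29.7, 19.5 and 25.9 CPM (0.95, SE 0.243). Both were called by DESeq2, and neither overlapped between groups. Of the 32 genes that synthesize, elongate or desaturate fatty acids, 3 were higher and 4 lower at this threshold, with a median of −0.09. *Acacb*, the acetyl-CoA carboxylase whose malonyl-CoA product blocks Cpt1, was at 57, 91 and 77 CPM in KPG1 tumors and at 13.3, 5.76 and 26.2 CPM in KPG1-PPARαΔ13 tumors (log2 fold change −2.31, SE 0.62). *Fads1*, the Δ5-desaturase, was at 103, 229 and 98.3 CPM against 36.2, 66 and 63.2 CPM. *Elovl2*, an elongase of polyunsaturated fatty acids, was at 0.48, 0.69 and 0.69 CPM against 44.7, 4.29 and 11.3 CPM. Its log2 fold change was 5, and that between KP-PPARαΔ13 and KP tumors was −5.83. In cholesterol synthesis and uptake, 22 of 33 genes were higher and 11 lower, with a median log2 fold change of 0.29. This median lay between 0.077 and 0.412 when single tumors were left out. Summed CPM of the list, which weighs the abundant genes, ran the other way. It was 6225, 5581 and 5471 in KPG1 tumors and 3969, 4371 and 4734 in KPG1-PPARαΔ13 tumors, without overlap. *Scap*, which escorts SREBP to its proteases, was at 29.6, 48 and 42.8 CPM against 76.1, 72.4 and 74.5 CPM (0.89, SE 0.211). *Scap* and *Ebp* (0.85), a sterol isomerase, are on chromosomes 9 and X, whose genes were higher throughout with medians of 0.35 and 0.45.

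Genes of surfactant and alveolar type 2 cells were lower on balance in KPG1-PPARαΔ13 tumors. Of 29 tested, 5 were higher and 24 lower, with a median log2 fold change of −0.75. At an unadjusted p under 0.05, 0 were higher and 9 lower, and in 15 genes all 3 KPG1-PPARαΔ13 tumors were below all 3 KPG1 tumors. None passed adjustment by edgeR (smallest adjusted p = 0.42), and DESeq2 called 2, both lower. The mean log2 CPM of the list was 9.47, 9.65 and 9.44 in KPG1 tumors and 8.39, 8.93 and 9.06 in KPG1-PPARαΔ13 tumors, without overlap. *Lamp3*, a protein of lamellar bodies, was at 1232.8, 1641.1 and 1056.1 CPM against 113.8, 401.2 and 556.3 CPM (log2 fold change −1.88, SE 0.517). *Slc34a2*, the phosphate transporter of type 2 cells, was at 5534, 6236 and 7682 CPM against 1012, 2707 and 3730 CPM. In both genes replicate 1 of the KPG1-PPARαΔ13 tumors was lowest. *Sftpc* was at 19367, 26491 and 29952 CPM against 9798, 15385 and 15077 CPM (−0.91, SE 0.508, adjusted p = 0.538). *Abca3*, which loads lipid into lamellar bodies, was at 1868.6, 1476.5 and 1996.4 CPM against 745.5, 966.1 and 1204.6 CPM.

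The transcription factors of the type 2 program did not share a direction. *Etv5*, a mediator of FGF signaling that maintains type 2 cells, was at 311, 270 and 244 CPM in KPG1 tumors and at 111, 131 and 146 CPM in KPG1-PPARαΔ13 tumors (log2 fold change −1.09, SE 0.302), and *Cebpa* was at 480, 493 and 335 CPM against 214, 274 and 262 CPM (−0.80). *Nkx2-1*, the lung lineage factor, was at 245, 249 and 263 CPM against 533, 288 and 243 CPM, and the groups overlapped. The median of the alveolar type 2 list was −0.46 with sex as a covariate and −0.73 in male tumors alone. It lay between −0.865 and −0.661 when single tumors were left out. The 9 genes lower at an unadjusted p under 0.05 became 4 with sex as a covariate and 6 to 10 without single tumors. Alveolar type 1 genes gave a median of −0.27, with 16 of 20 lower and 1 lower at an unadjusted p under 0.05.

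Genes of the gut lineage were higher on balance. Of 24 genes of the gastric and gut lineage, which mark a loss of pulmonary identity in this tumor model, 19 were higher and 5 lower, with a median log2 fold change of 0.83 and 8 higher and 0 lower at an unadjusted p under 0.05. In 3 of the 24 genes (12.5%) all 3 KPG1-PPARαΔ13 tumors were above all 3 KPG1 tumors, close to the 11.2% of all genes tested. The mean log2 CPM of the list was 2.20, 3.49 and 2.77 in KPG1 tumors and 3.13, 4.74 and 4.15 in KPG1-PPARαΔ13 tumors, which overlap. The count of 8 went down to 3, 4 and 5 without KPG1 replicate 1, KPG1 replicate 3 and KPG1-PPARαΔ13 replicate 2, and was 7 in male tumors alone. *Vil1*, the brush-border protein villin, was at 40, 129 and 83.7 CPM against 163, 159 and 241 CPM. *Apoa1*, the apolipoprotein of HDL, was at 5.04, 22.2 and 10.2 CPM against 50.3, 84.4 and 61.1 CPM (log2 fold change 2.39, SE 0.777). *Tff3*, a trefoil factor of goblet cells, was at 0.28, 0 and 0 CPM in KPG1 tumors and at 53.3, 137 and 0.092 CPM in KPG1-PPARαΔ13 tumors, and so separated 2 tumors from the rest. Club and ciliated airway genes held no common direction, with 14 of 20 higher and 6 lower and a median of 0.26 that turned to −0.30 without KPG1-PPARαΔ13 replicate 1 and to −0.76 in male tumors alone. *Scgb1a1*, the club cell secretory protein gene whose promoter drives the transactivator, was at 56.6, 25.5 and 76 CPM against 159, 9.96 and 15.5 CPM, so that the KPG1-PPARαΔ13 tumors were both above and below the KPG1 tumors. *Bpifa1*, a secreted airway defense protein, was at 8.6, 4.89 and 2.78 CPM against 26.6, 345 and 69.2 CPM, while *Cyp2f2*, a cytochrome of club cells, was at 316, 193 and 43.2 CPM against 10.7, 15.6 and 45.6 CPM. *Hmga2*, a chromatin protein of late-stage tumors, was at 1, 0.757 and 0.132 CPM against 8.49, 16.2 and 14.6 CPM (log2 fold change 4.38, SE 1.47) and was called by DESeq2.

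**Figure D3:**
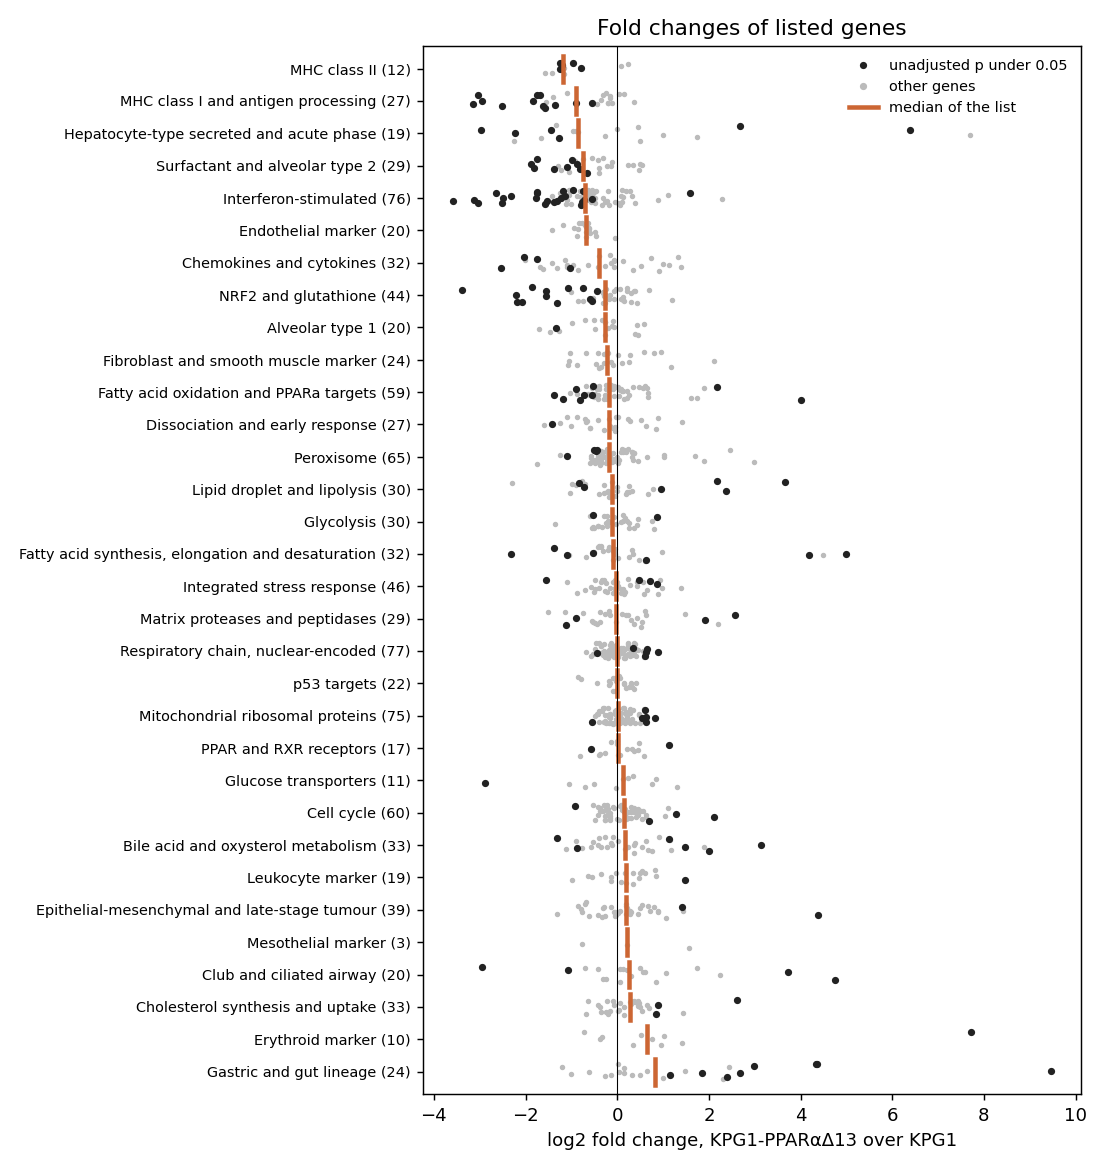
Log2 fold changes of the members of each gene list, KPG1-PPARαΔ13 against KPG1, with 1 point per gene (dark at an unadjusted p under 0.05, gray otherwise), an orange bar at the median and the number of genes in brackets. The lists of MHC class II, MHC class I, acute phase, alveolar type 2 and interferon-stimulated genes have medians between −1.18 and −0.70, and the gastric and gut list one of 0.83.

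Interferon-stimulated genes and antigen presentation were lower on balance in KPG1-PPARαΔ13 tumors. Interferons act through transcription factor complexes that bind interferon-stimulated response elements and gamma-activated sites, and MHC class I and II molecules are among the products. Of 76 interferon-stimulated genes, 14 were higher and 62 lower, with a median log2 fold change of −0.70. At an unadjusted p under 0.05, 1 was higher and 23 lower, and in 34 genes all 3 KPG1-PPARαΔ13 tumors were below all 3 KPG1 tumors. None passed adjustment by edgeR, and DESeq2 called 4, all lower. Of 27 genes of MHC class I and antigen processing, 24 were lower (median −0.90), 12 of them at an unadjusted p under 0.05, and of 12 MHC class II genes 10 were lower (median −1.18), 5 of them at that threshold. These lists share 5 genes, 4 between the first pair and *Ciita* between the first and the last.

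*Psmb9*, a subunit of the immunoproteasome, was at 19, 34.6 and 8.99 CPM in KPG1 tumors and at 1.4, 4.29 and 5.2 CPM in KPG1-PPARαΔ13 tumors (log2 fold change −2.52, SE 0.755). *Tap2*, which carries peptides into the endoplasmic reticulum, was at 56.7, 80.8 and 26.6 CPM against 9.24, 20.1 and 21.7 CPM. In both genes the highest level was in KPG1 replicate 2, and the groups did not overlap. *B2m*, the invariant chain of class I, was at 240, 668 and 113 CPM against 83, 92.9 and 108 CPM (−1.85, SE 0.811), so that KPG1 replicate 3 was just above the KPG1-PPARαΔ13 tumors. *Nlrc5*, the transactivator of class I genes, was at 10.5, 32.4 and 2.84 CPM against 1.4, 1.47 and 2.65 CPM. *Iigp1* and *Zbp1*, an immunity-related GTPase and a sensor of Z-form nucleic acid, were called by DESeq2. *Iigp1* was at 27.5, 102 and 18.7 CPM against 3.07, 3.75 and 5.57 CPM (−3.58), and *Zbp1* at 2.52, 4.2 and 1.72 CPM against 0.648, 0.48 and 0.554 CPM (−2.32, SE 0.498). *Cd74*, the class II invariant chain, was at 1832.9, 2950.4 and 2744.8 CPM against 533.1, 1174.2 and 1470.9 CPM, and *Ciita*, the class II transactivator, at 80.8, 115 and 103 CPM against 27.2, 63.1 and 62.6 CPM. Not all members separated the groups. *Isg15*, a ubiquitin-like modifier, was at 2, 1.79 and 2.71 CPM against 0.887, 1.79 and 1.57 CPM, and *Oasl1* was higher in KPG1-PPARαΔ13 tumors with a log2 fold change of 1.59 and overlapping groups.

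The promoters of 4 of the genes are shown because they carry interferon elements within 250 bases of their start. In capitals are the interferon-stimulated response element, searched as GAAANNGAAA, and the gamma-activated site, searched as TTCNNNGAA, each on both strands. Each line holds the 250 bases before the start of transcription from RefSeq (GRCm38.p6, all on the plus strand). They are chr11:58199306-58199555 for *Igtp*, chr11:58214727-58214976 for *Irgm2*, chr3:142496684-142496933 for *Gbp5* and chr2:122147437-122147686 for *B2m*. *Igtp* and *Irgm2* encode immunity-related GTPases and *Gbp5* a guanylate-binding protein.
*Igtp*: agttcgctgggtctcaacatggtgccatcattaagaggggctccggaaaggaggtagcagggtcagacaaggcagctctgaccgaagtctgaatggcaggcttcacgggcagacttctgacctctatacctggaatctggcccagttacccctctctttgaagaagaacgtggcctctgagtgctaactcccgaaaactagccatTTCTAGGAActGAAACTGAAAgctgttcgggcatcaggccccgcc
*Irgm2*: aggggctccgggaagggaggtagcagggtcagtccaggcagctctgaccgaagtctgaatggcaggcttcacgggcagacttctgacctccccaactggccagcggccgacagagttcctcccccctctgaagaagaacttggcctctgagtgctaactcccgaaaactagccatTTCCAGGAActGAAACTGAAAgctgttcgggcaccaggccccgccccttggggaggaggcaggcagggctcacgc
*Gbp5*: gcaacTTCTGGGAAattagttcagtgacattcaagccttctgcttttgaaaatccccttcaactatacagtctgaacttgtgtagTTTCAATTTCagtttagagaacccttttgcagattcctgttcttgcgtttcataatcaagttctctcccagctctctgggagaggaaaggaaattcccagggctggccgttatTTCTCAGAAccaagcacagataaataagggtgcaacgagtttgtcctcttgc
*B2m*: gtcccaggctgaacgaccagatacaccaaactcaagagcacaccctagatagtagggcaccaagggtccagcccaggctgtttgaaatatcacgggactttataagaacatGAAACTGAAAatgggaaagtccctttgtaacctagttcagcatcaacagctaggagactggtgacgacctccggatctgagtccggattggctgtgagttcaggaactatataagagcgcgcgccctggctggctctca

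In *Igtp* and *Irgm2* the gamma-activated site lies directly before the response element, with first bases 45 and 34 bases before the start in *Igtp* and 75 and 64 bases before it in *Irgm2*. *Igtp* was at 12.7, 36.0 and 10.2 CPM in KPG1 tumors and at 3.68, 7.65 and 6.16 CPM in KPG1-PPARαΔ13 tumors. *Irgm2* was at 21.8, 38.6 and 17 CPM against 7.81, 14.3 and 13.3 CPM, and *Gbp5* at 2.44, 6.40 and 2.12 CPM against 1.30, 1.02 and 1.48 CPM. All 3 had their highest value in KPG1 replicate 2, and their groups did not overlap. Of the 76 interferon-stimulated genes, 57 had windows of 300 bases, and 33 of these 68 windows (48.5%) held the response element against 3.443% of all windows. The gamma-activated site was in 15 of them (22.1%) against 8.298% of all, and 2 of the 24 class I windows held it. The response element was in 5 of the 24 windows of class I genes and in 1 of 10 of class II genes. These are matches of letters and not measured sites.

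How firmly the interferon pattern holds depended on single tumors. The mean log2 CPM of the interferon list was 3.18, 3.47 and 2.79 in KPG1 tumors and 1.97, 2.60 and 2.63 in KPG1-PPARαΔ13 tumors, so that KPG1 replicate 2 was highest and KPG1-PPARαΔ13 replicate 1 lowest. Class I means were 5.49, 6.06 and 4.65 against 3.89, 4.63 and 4.81 and overlapped, while class II means were 4.93, 5.58 and 4.63 against 3.28, 4.46 and 4.42 and did not. The 23 interferon-stimulated genes that were lower at an unadjusted p under 0.05 went down to 10 without KPG1 replicate 2 and to 8 without KPG1-PPARαΔ13 replicate 1. The 12 class I genes went down to 5 without KPG1 replicate 2, to 6 without KPG1-PPARαΔ13 replicate 1 and to 7 without KPG1-PPARαΔ13 replicate 2, and the 5 class II genes to 1 without KPG1 replicate 2 and to 1 without KPG1-PPARαΔ13 replicate 1. With sex as a covariate these counts were 12, 2 and 0, and in male tumors alone, with 1 KPG1-PPARαΔ13 tumor, 2, 1 and 0. The medians stayed negative in all these settings, between −0.879 and −0.52 for the interferon list when single tumors were left out. Most class I genes (17 of 27) and class II genes (9 of 12) are on chromosome 17, whose genes as a whole had a median of −0.27. After subtracting each gene's chromosome median, the list medians were −0.62, −0.64 and −0.91. Endothelial markers were lower as well (median −0.67). The median of leukocyte markers was 0.19, and −0.63 without KPG1-PPARαΔ13 replicate 2. Their part in the interferon and MHC levels was not tested. Chemokine and cytokine genes had 23 of 32 lower with a median of −0.41, and *Cxcl5*, a neutrophil chemoattractant, was at 16.9, 42.9 and 20.6 CPM against 1.47, 6.5 and 5.79 CPM, while the median of the list between KP-PPARαΔ13 and KP tumors was 0.76.

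**Figure D4:**
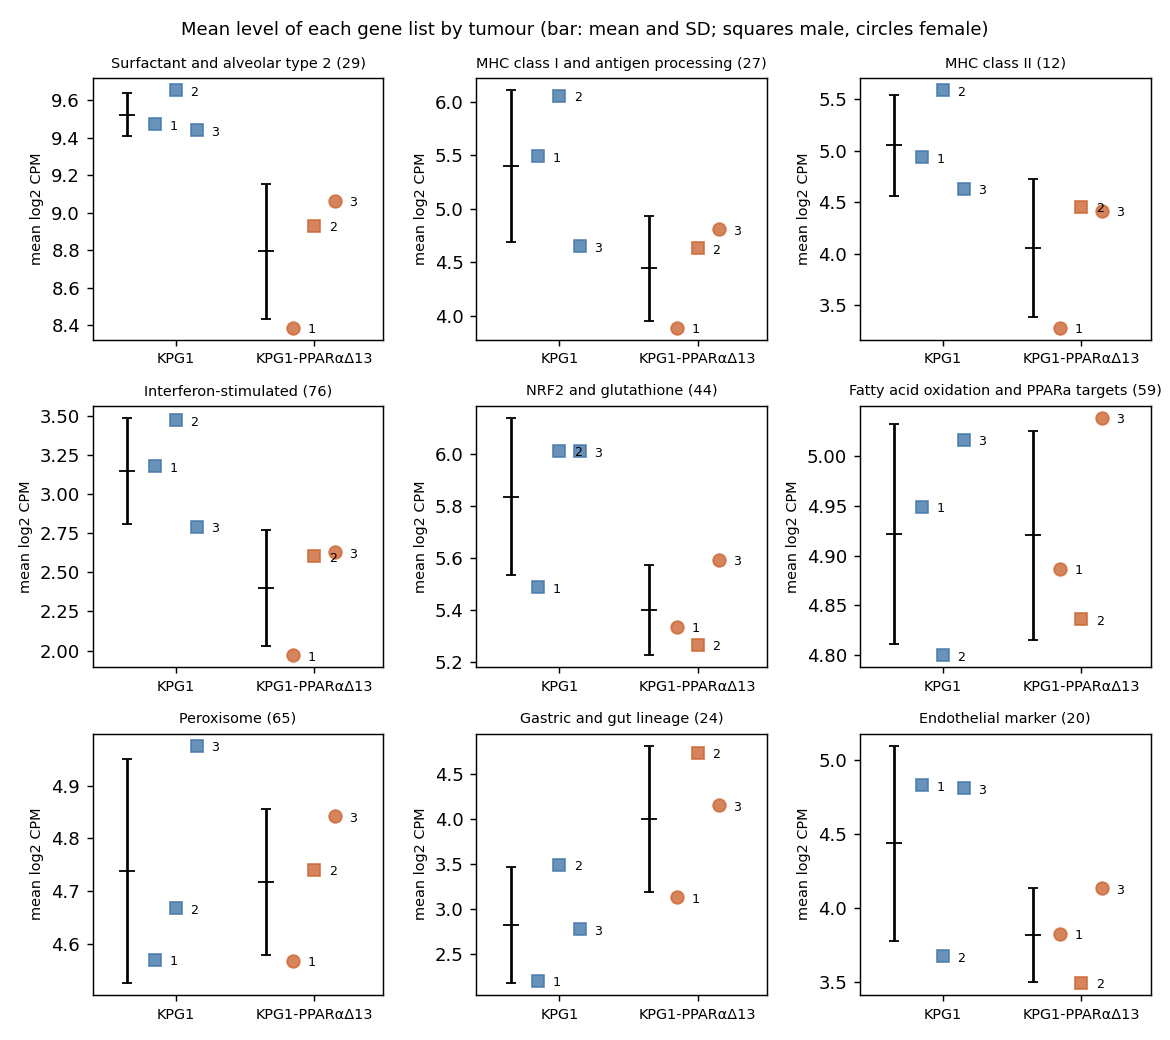
Mean log2 CPM of selected gene lists in each of the 6 tumors, numbered by replicate, with squares for males, circles for females, bars for the group mean and SD, and 1 panel for each of 9 lists. The alveolar type 2, interferon-stimulated and MHC class II lists lie lower in all 3 KPG1-PPARαΔ13 tumors than in any KPG1 tumor. In this mean, which weighs all genes alike, the fatty acid oxidation list overlaps between the groups.

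Acute phase and secreted liver-type genes differed in both directions. *Lcn2*, the siderophore-binding lipocalin, was at 948.4, 747.4 and 919.9 CPM in KPG1 tumors and at 38.5, 184.4 and 334.0 CPM in KPG1-PPARαΔ13 tumors (log2 fold change −2.23, SE 0.776). *C3*, the central complement component, was at 448, 806 and 124 CPM against 16.1, 24.7 and 136 CPM, and the groups overlapped through replicate 3 of each. The largest fold changes of the list were positive and of genes at very low levels in KPG1 tumors. *Serpina1b*, an α1-antitrypsin gene of a multigene family, was at 0.04, 0 and 0.033 CPM against 0.0341, 6.21 and 0.8 CPM and was called by DESeq2, while its paralog *Serpina1a* was at 0 in the 3 KPG1 tumors and at 0.58, 1.73 and 0.277 CPM in KPG1-PPARαΔ13 tumors. *Fgb*, the fibrinogen β-chain, was at 0.04, 0.241 and 0.694 CPM against 1.26, 1.95 and 3.17 CPM. Reads of the *Serpina1* copies may be split between them. Of the 19 genes of this list, 7 were higher and 12 lower, with 2 higher and 4 lower at an unadjusted p under 0.05 and a median of −0.85.

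NRF2 target genes, which detoxify electrophiles and supply glutathione, were lower more often than higher. Of 44 tested, 14 were higher and 30 lower, with a median log2 fold change of −0.27, and 0 were higher and 13 lower at an unadjusted p under 0.05. Between KP-PPARαΔ13 and KP tumors their median was 0.39. *Nqo1*, the quinone reductase, was at 4.04, 15.5 and 6.01 CPM in KPG1 tumors and at 1.98, 1.15 and 2.4 CPM in KPG1-PPARαΔ13 tumors (−2.21, SE 0.82). *Cbr3*, a carbonyl reductase, was at 20.2, 53.2 and 68.7 CPM against 3.31, 17.2 and 13.4 CPM (−2.07, SE 0.651), and *Slc7a11*, the cystine transporter, at 21.7, 37.2 and 16.1 CPM against 5.25, 5.57 and 14.8 CPM. The groups did not overlap in these genes, although KPG1 replicate 3 and KPG1-PPARαΔ13 replicate 3 were close in *Slc7a11*. The 13 genes went down to 8 without KPG1 replicate 2, to 5 without KPG1 replicate 3 and to 6, 3 and 8 without KPG1-PPARαΔ13 replicates 1, 2 and 3, and to 0 with sex as a covariate or in male tumors alone. The antioxidant response element, searched as TGACNNNGC on both strands, was in 11 of the 46 windows (23.9%) found for 37 of these genes, and in 12.392% of all windows.

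Genes of glycolysis, respiration and growth were close to the whole transcriptome. In glycolysis 13 of 30 genes were higher and 17 lower, and in the nuclear-encoded respiratory chain 38 of 77 were higher and 39 lower, with 5 higher and 1 lower at an unadjusted p under 0.05. The 75 mitochondrial ribosomal proteins gave 41 higher and 34 lower. *Slc5a1*, the sodium-coupled glucose transporter Sglt1, stood apart from the facilitative transporters, at 14.8, 17.5 and 27.9 CPM in KPG1 tumors and at 3.41, 1.06 and 3.69 CPM in KPG1-PPARαΔ13 tumors (log2 fold change −2.88, SE 0.745), and was called by DESeq2. In the cell cycle list 37 of 60 genes were higher and 23 lower, with a median of 0.16. *Mki67*, the marker of proliferating cells, was at 218.7, 124 and 94.2 CPM against 120.5, 143.3 and 91.8 CPM. *Ccnd2*, cyclin D2, was at 6.76, 4.27 and 6.94 CPM against 26.4, 33 and 18.4 CPM without overlap (log2 fold change 2.11, SE 0.803). Of the integrated stress response genes, 3 were higher and 1 lower of 46 at an unadjusted p under 0.05. *Asns*, asparagine synthetase, was at 44.1, 34.4 and 25.1 CPM against 77.8, 55.7 and 54.9 CPM, and *Shmt2*, the mitochondrial serine hydroxymethyltransferase, at 37.2, 27.3 and 34.5 CPM against 56.2, 44.1 and 63.4 CPM. Matrix proteases and peptidases (14 of 29 higher, 15 lower) and genes of the epithelial-mesenchymal transition and late-stage tumors (22 of 39 higher, 17 lower) were evenly placed. Of the 22 p53 target genes, 0 were past this threshold in either direction by edgeR.

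The mean levels of stromal marker lists overlapped between the groups. For the endothelial list the group difference was −0.62 in mean log2 CPM, with SDs of 0.66 in KPG1 and 0.32 in KPG1-PPARαΔ13 tumors. All 20 endothelial markers were lower in KPG1-PPARαΔ13 tumors with a median log2 fold change of −0.67, but 0 were past an unadjusted p of 0.05 and 1 separated the groups. *Pecam1*, the endothelial adhesion molecule CD31, was at 105, 33.6 and 85.5 CPM in KPG1 tumors and at 57.6, 36.9 and 53.7 CPM in KPG1-PPARαΔ13 tumors. Endothelial markers summed to 459.6 to 960.6 CPM and to 359.4 to 567.7 CPM, and their part in the other differences was not tested. Fibroblast and smooth muscle markers were higher in 9 and lower in 15 of 24 with a median of −0.21, and *Col1a1* was at 45.2, 26.8 and 59.9 CPM against 46.9, 33.5 and 44.3 CPM. Leukocyte markers were higher in 12 and lower in 7 of 19 genes, and higher in 6 and lower in 14 of 20 without KPG1-PPARαΔ13 replicate 2.

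Differences also followed whole chromosomes. Among 11471 genes of at least 5 CPM, the median log2 fold change was 0.35 on chromosome 9, where 83.3% of 618 genes were higher, and 0.45 on chromosome X, where 89.0% of 356 genes were higher. Medians were −0.34 on chromosome 15, −0.35 on chromosome 19 and −0.27 on chromosome 17. The levels of the tumors overlapped between groups on chromosomes 17 and 19. On chromosome 19 they were 0.014, 0.562 and −0.056 in KPG1 tumors and −0.404, −0.079 and 0.012 in KPG1-PPARαΔ13 tumors. The shifts ran along the entire chromosome, with medians of 20-Mb bins between 0.139 and 0.439 in the 7 bins of chromosome 9, between 0.347 and 0.572 in the 9 bins of chromosome X and between −0.371 and −0.309 in the 6 bins of chromosome 15. On chromosome X the median level of genes, relative to the mean of the 6 tumors, was 0.171 on the log2 scale in the male KPG1-PPARαΔ13 tumor and 0.308 and 0.236 in the female tumors, all above the male KPG1 tumors at −0.203, −0.109 and −0.356. Chromosomes 9 and X held 8.49% of these genes but 265 of the 668 (39.7%) that were higher at an unadjusted p under 0.05. Chromosomes 15, 17 and 19 held 12.6% of the genes and 192 of the 601 (31.9%) that were lower. Chromosome 5 held 87 of the 601 (11.8% of its 740 genes) with a median of −0.14. Chromosome 7 held 84 (9.94% of its 845 genes) with a median of −0.15. The chromosomes grouped here were picked by their shift in these data, so the shares are not independent of it. Single tumors stood apart too, as with a chromosome 8 level of −0.50 in KPG1 replicate 1 and a chromosome 13 level of 0.53 in KPG1-PPARαΔ13 replicate 1. DNA copy number was not measured, and its part in these differences was not tested.

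**Figure D5:**
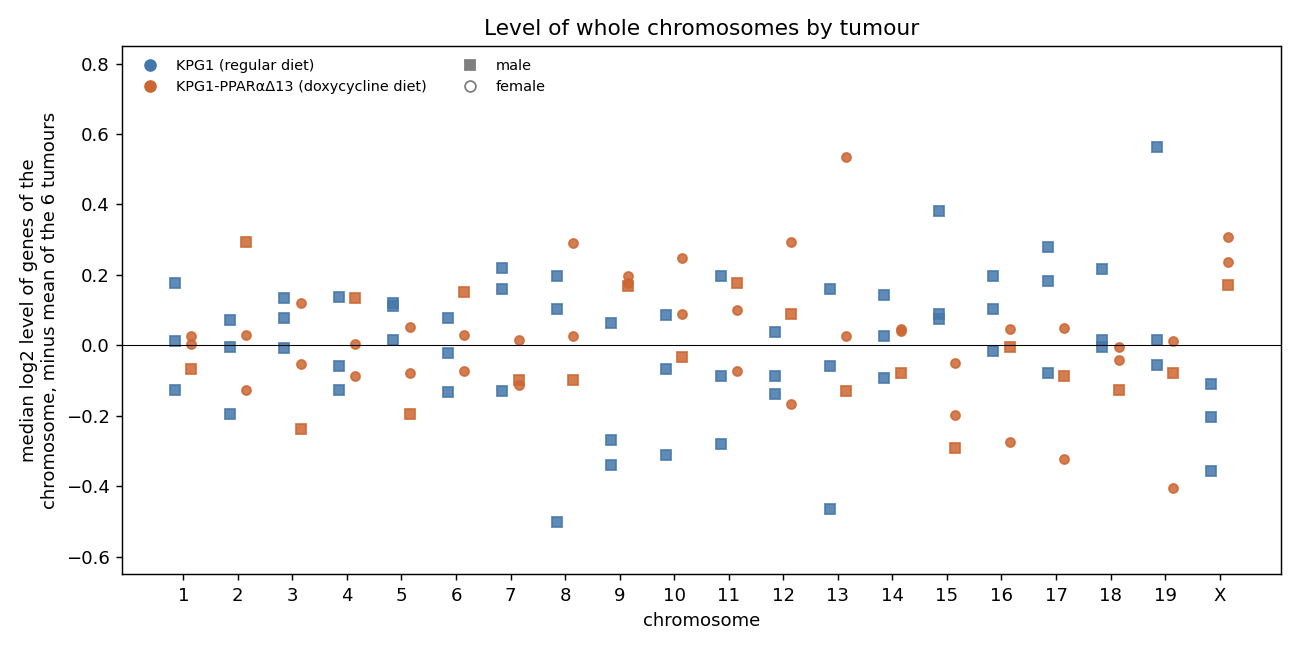
Median log2 level of the genes of each chromosome in each of the 6 tumors, minus the mean of the 6 tumors, 1 point per tumor, with KPG1 in blue, KPG1-PPARαΔ13 in orange, squares for males and circles for females. On chromosomes 9 and X the 3 KPG1-PPARαΔ13 tumors lie above the 3 KPG1 tumors, and on chromosome 15 below them.

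The same diet was given to mice with the same transgene that were not Glut1 Fl/Fl. The comparison of both genotypes has limits. *Ppara* counts differed between the groups on doxycycline, as given above, and sex ran in opposite directions, with 3 female KP tumors against 1 female and 2 male KP-PPARαΔ13 tumors, and 3 male KPG1 tumors against 1 male and 2 female KPG1-PPARαΔ13 tumors. Sex and genotype therefore cannot be told apart in this comparison. The difference between the effects, tested as an interaction across all genes, was past an adjusted p of 0.05 in 0 genes by edgeR, with 1952 genes at an unadjusted p under 0.05, and in 286 genes by DESeq2. Of the 24 top-ranked genes, 13 had the same sign in both settings. By edgeR, 18 of them had an interaction p under 0.05 before adjustment, against 1952 of all 16527 genes. They were ranked by the same KPG1 and KPG1-PPARαΔ13 values that enter the interaction, so these counts are no test of a difference between genotypes. *Acsbg1* and *Anpep* were of the same sign in both. The interferon-stimulated and MHC class I and II lists had medians of −0.70, −0.90 and −1.18 in Glut1 Fl/Fl tumors. Between KP-PPARαΔ13 and KP tumors these were 0.003, −0.12 and −0.07. The alveolar type 2 list had −0.75 and −0.37. Whether these list medians differ between the genotypes was not tested.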

How the data were processed

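RNA of 12 lung tumors was sequenced from stranded poly(A) libraries. The authors deposited raw read counts per gene, made from reads aligned to mm10. The submitters' processing notes name bcl2fastq 2.17, cutadapt 1.4.2, HISAT2, featureCounts 1.4.4 and edgeR, while the annotation release and the strand setting of the counting are not given in the sources used here. The table lists 39017 genes, of which 13548 had no count in any tumor. All 37 mitochondrial genes were at 0 and were not analysed here. Some genes of the lists and 1 allele shared by all mice are not reported here.

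Counts were filtered with filterByExpr, scaled by TMM and tested with the quasi-likelihood test of edgeR 4.0.16 (limma 3.58.1, R 4.3.3) in 1 fit over the 4 groups, with Benjamini-Hochberg adjustment over 16527 genes. Fold changes are KPG1-PPARαΔ13 over KPG1. CPM values use TMM-scaled libraries, and list means use log2 CPM with a prior count of 2. DESeq2 1.42.0, limma voom, other scalings and filters, a sex covariate, subsets of tumors and each tumor left out were run as alternatives. Male tumors alone means that the 2 female KPG1-PPARαΔ13 tumors were left out, which leaves 1 in that group. The KP and KP-PPARαΔ13 tumors, females included, stayed in that fit. The mouse of origin was read from a number in the labels. The scripts were tested on simulated data.

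Named genes are those past an adjusted p of 0.05, up to 12 per direction by p-value that averaged 5 CPM or more and did not overlap (predicted genes left out), up to 3 per direction and list at an unadjusted p under 0.05 and at least 1 CPM, and a set of PPAR, glucose transport and marker genes. *Cd36*, *Hadha*, *Slc34a2*, *Cebpa*, *Nkx2-1*, *Igtp*, *Irgm2* and other genes outside that rule were chosen after their values were seen. The comparison, the members and the lists were chosen with earlier results of these data known. Motifs were searched in RefSeq start-site windows of 300 bases (GRCm38.p6).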

Additional observations from a re-analysis of the deposited data

How the results depend on the processing

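The count of genes past an adjusted p of 0.05 (1 with edgeR) was 197 with DESeq2, 0 with limma voom and 0 with the 6 tumors fitted alone. It was 0 with tumors of a mouse summed and 0 to 2 without single tumors. It was 0 without KPG1 replicate 1, 2 or 3. Replicate numbers shared by the groups did not pair the tumors (correlations of 0.0565, 0.0645 and −0.168), and with the replicate number as a block 2 genes passed (*Hba-a2* and *Acsbg1*). The 1033 genes higher and 744 lower at an unadjusted p under 0.05 became 496 and 399 at a mean of at least 20 TPM, 425 and 246 with sex as a covariate, 393 and 246 in males alone and, for lower genes, 471 with mice summed. Without single tumors they ran from 630 to 944 and from 392 to 918, both lowest without KPG1-PPARαΔ13 replicate 1. The interaction was past the threshold in 286 genes with DESeq2.

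Of the list medians, fatty acid oxidation ran from −0.257 to −0.0792 without single tumors, alveolar type 2 was −0.463 and MHC class II −0.593 with sex as a covariate, and NRF2 was −0.521 in males alone. Club and ciliated genes turned to −0.756 in males alone and ran from −0.300 to 0.463 without single tumors. The log2 fold changes of some genes far from the threshold changed sign. *Slc2a3* ran from −0.305 to 1.2, *Mki67* from −0.563 to 0.115, *Angptl4* from −0.545 to 0.237, *Ptprc* from −0.157 to 0.429 and *Col1a1* from −0.37 to 0.173 without single tumors. *Slc2a1* was 0.166 with sex, 0.238 in males and 0.0762 with mice summed, and ran from −0.247 to 0.294. *Rxra* was 0.0039 with voom, 0.0045 with upper-quartile scaling, 0.147 with sex, 0.0206 with the replicate block and 0.249 in males, and ran from −0.229 to 0.105. *Scgb1a1* was −0.739 with voom, −1.36 with sex, −0.496 with the replicate block, −2.41 in males and −0.321 with mice summed, and ran from −2.05 to 0.727. The causes were not tested. Where a tumor left out leaves few per group, the fit takes its spread from all 4 groups. Subtracting chromosome medians and counting list members under each alternative were chosen after seeing the data. The TPM and unfiltered sets were applied to counts of genes and not to list medians.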

Other observations

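DESeq2 called 197 genes, and the following ones, outside those described above, were chosen after their values were seen. Among those called higher in KPG1-PPARαΔ13 tumors, *Prox1*, a transcription factor of lymphatic and liver development, had a log2 fold change of 4.60, *Bmp7*, a bone morphogenetic protein, one of 5.70, *Reg4*, a secreted lectin of the gut, one of 6.96 and *Pyy*, the gut hormone peptide YY, one of 5.67. The imprinted transcript *H19* was at 6.36 and *Inhba*, the activin A subunit, at 3.19. Among those called lower were *Batf2*, an interferon-induced transcription factor, at −4.54, *Epsti1* at −3.11, *Chi3l1*, a chitinase-like protein, at −3.41, *Slc16a4*, a monocarboxylate transporter family member, at −3.63 and *Pycard*, the inflammasome adaptor ASC, at −2.10. None of these passed the edgeR threshold.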
